A study of Danio rerio with 11 samples.

Results

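The genes described here make cholesterol or bring it into the cell, and they were chosen by name: 9 gene symbols were fixed, and each row of the deposited expression table with that symbol was taken across all 3 groups. Of the 9 genes, 6 were matched (hmgcra, idi1, sqlea, lss, cyp51 and ldlra) among 24441 genes in all, and hmgcs1, fdft1 and dhcr7 were not analysed here. RNA was sequenced from 11 sorted cell samples of adult zebrafish, whose ages are not given. The MA group held 5 melanoma samples of the genotype BRAFV600E/p53lf/lf/crestin:EGFP, sorted by green fluorescence from tumors. They represent 3 fish, since a single animal gave the tumors MA3A, MA3B and MA3C. The MC_Het group held 3 samples of precancerous skin melanocytes (BRAFV600E/+/p53+/lf/mitfa+/-/mitfa:mCherry), and the MC_WT group held 3 samples of melanocytes from wild-type AB* fish that carried only mitfa:mCherry. Both melanocyte groups were sorted by red fluorescence from whole skin, and their reporter construct also carries a mitfa minigene. The mitfa promoter drives the human BRAF oncogene in this model. Genotype, tissue of origin and sorting reporter differ together between MA and the melanocytes and cannot be told apart.

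Animal cells build cholesterol from acetyl-CoA through mevalonate, isoprenoid diphosphates, squalene and lanosterol, and they also take it up as low-density lipoprotein (LDL) through the LDL receptor. When sterols in the endoplasmic reticulum run low, the escort protein Scap carries the SREBP transcription factors to the Golgi for cleavage, and the released factors switch on the synthesis enzymes and the LDL receptor together. When sterols are plentiful, Insig proteins hold the complex back, so the genes of the pathway are known for moving as a unit.

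Library totals ran between 14718024 and 22612463 reads, and all low values in the table came out as whole reads. Levels are given as rescaled CPM, that is, CPM (read counts scaled to a common library total) divided by a library factor. The factor brings the median ratio of the genes to their mean over the libraries to the same value in every library. It does not make most genes equal between libraries. The labelled cell type was checked against marker genes. Summed over 12 melanocyte markers, levels were 4221 to 11618 rescaled CPM in MA, against 1352 to 5611 in MC_Het and 555 to 1169 in MC_WT. Summed over 10 keratinocyte markers, they were 1291 to 5247 in MA, against 50670.2 to 93045 in MC_Het and 69226 to 118474 in MC_WT. Most of the melanocyte sums came from tyrp1b and pmela, and single markers could differ: oca2 was at 0 to 2.05 in MA and 2.6 to 13.6 in the melanocyte samples. By the limma test used below, 9 of 11 melanocyte markers tested were higher in MA and 1 lower (23.8% and 27.7% of all genes were). Most of the MA keratinocyte sum was krt8, at 937 to 4755, against 2203 to 4548 in the melanocyte samples. Leukocyte markers summed to 90.7 to 956 in MA, against 4938 to 7890.0 in the 6 melanocyte samples, and fibroblast markers to 4.37 to 61.7 against 639 to 4088. Within the melanocyte samples the keratinocyte sums exceeded the melanocyte sums, though these sums were not set per gene length. The melanocyte samples held far more RNA of keratinocyte, leukocyte and fibroblast markers than MA did. Proliferation markers went the other way, with sums of 445 to 954 in MA and 99.8 to 283 in the melanocyte samples. In bulk samples, fewer cells of a type and less RNA per cell cannot be told apart. The comparisons of MA with the melanocytes below are between the same groups that differ in these sums, and the part of the markers in them was not tested.

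The cholesterol genes divided the 3 MC_WT libraries, and this stands ahead of the comparisons because all of those that use MC_WT rest on it. MC_WT1 and MC_WT3 were at high levels for all 6 genes and MC_WT2 was not. Over the 6 genes together, MA1, MA2, MA3A, MA3B and MA3C summed to 44.5, 71.7, 83.8, 76.3 and 45.9 rescaled CPM, the 3 MC_Het samples to 418, 679 and 149, and MC_WT1, MC_WT2 and MC_WT3 to 5969, 154 and 7115. In this sum MC_WT2 therefore stood next to MC_Het3, and not next to the other samples of its own genotype. By single gene, MC_WT2 lay above MC_Het3 for idi1, sqlea, lss and cyp51 and below it for hmgcra and ldlra. The spread is shown gene by gene first, and each comparison is then given with and without the libraries concerned.

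hmgcra (ENSDARG00000052734) encodes HMG-CoA reductase, the rate-limiting enzyme of the pathway and the target of statins. It was at 7.32, 16.4, 2.74, 3.87 and 4.22 rescaled CPM in MA1, MA2, MA3A, MA3B and MA3C, against 96.3, 339.6 and 84.5 in MC_Het1, MC_Het2 and MC_Het3 and 839.6, 61.1 and 951 in MC_WT1, MC_WT2 and MC_WT3. All 5 MA samples lay below all 6 melanocyte samples, MC_Het2 was the highest of its group, and MC_WT2 was the lowest melanocyte sample. The 3 tumors of the same fish lay closest together, between 2.74 and 4.22.

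idi1 (ENSDARG00000019976) encodes isopentenyl diphosphate isomerase, which interconverts the isoprenoid building blocks. It was at 25.6, 40.7, 62.6, 55.6 and 30.8 rescaled CPM in the MA samples in the same order, against 42.6, 29.1 and 5.96 in MC_Het and 868, 25.4 and 699.6 in MC_WT. This was the exception among the 6 genes: MA overlapped MC_Het, and the level in MC_WT2 lay just below the lowest MA sample. Only MC_WT1 and MC_WT3 were above MA.

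sqlea (ENSDARG00000079946) encodes squalene epoxidase, which oxidizes squalene ahead of ring closure. It was at 0.402, 0.252, 0.152, 0.345 and 1.11 rescaled CPM in MA, against 15.7, 3.98 and 0.479 in MC_Het and 340.2, 4.95 and 385 in MC_WT. The MA values came from 4 to 30 reads a library, and MC_Het3, with 7 reads, fell inside the MA range. lss (ENSDARG00000061274) encodes lanosterol synthase, which closes the sterol rings, and it was at 2.09, 1.22, 0.76, 0.767 and 0.222 rescaled CPM in MA, against 19.1, 4.79 and 0.411 in MC_Het and 186, 3.63 and 287 in MC_WT. As for sqlea, MC_Het3 lay inside the MA range, while MC_Het1, MC_Het2 and all 3 MC_WT samples lay above it.

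cyp51 (ENSDARG00000042641) encodes the lanosterol demethylase, a cytochrome P450 and the animal counterpart of the enzyme that azole antifungals block. It was at 8.88, 12.9, 17.5, 15.6 and 9.33 rescaled CPM in MA, against 215, 271 and 44.6 in MC_Het and 3620.0, 53.8 and 4688 in MC_WT. MA lay below both melanocyte groups, MC_WT2 fell between MC_Het3 and MC_Het1, and MC_WT3 alone had 77717 reads of this gene. The order of the 5 MA samples was the same for cyp51 and idi1 (MA3A, MA3B, MA2, MA3C, MA1) and differed for hmgcra.

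ldlra (ENSDARG00000029476) encodes an LDL receptor, which takes up cholesterol-carrying lipoprotein. It was at 0.121, 0.126, 0.076, 0.192 and 0.111 rescaled CPM in MA, against 29.3, 30.6 and 13.1 in MC_Het and 115, 4.77 and 104 in MC_WT. The MA values rest on 2 to 5 reads a library, so this transcript was close to the limit of detection in all 5 tumor samples, and it was present in all 6 melanocyte samples with at least 79 reads. MC_WT2 was the lowest melanocyte sample here, below all 3 MC_Het samples.

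**Figure D1:**
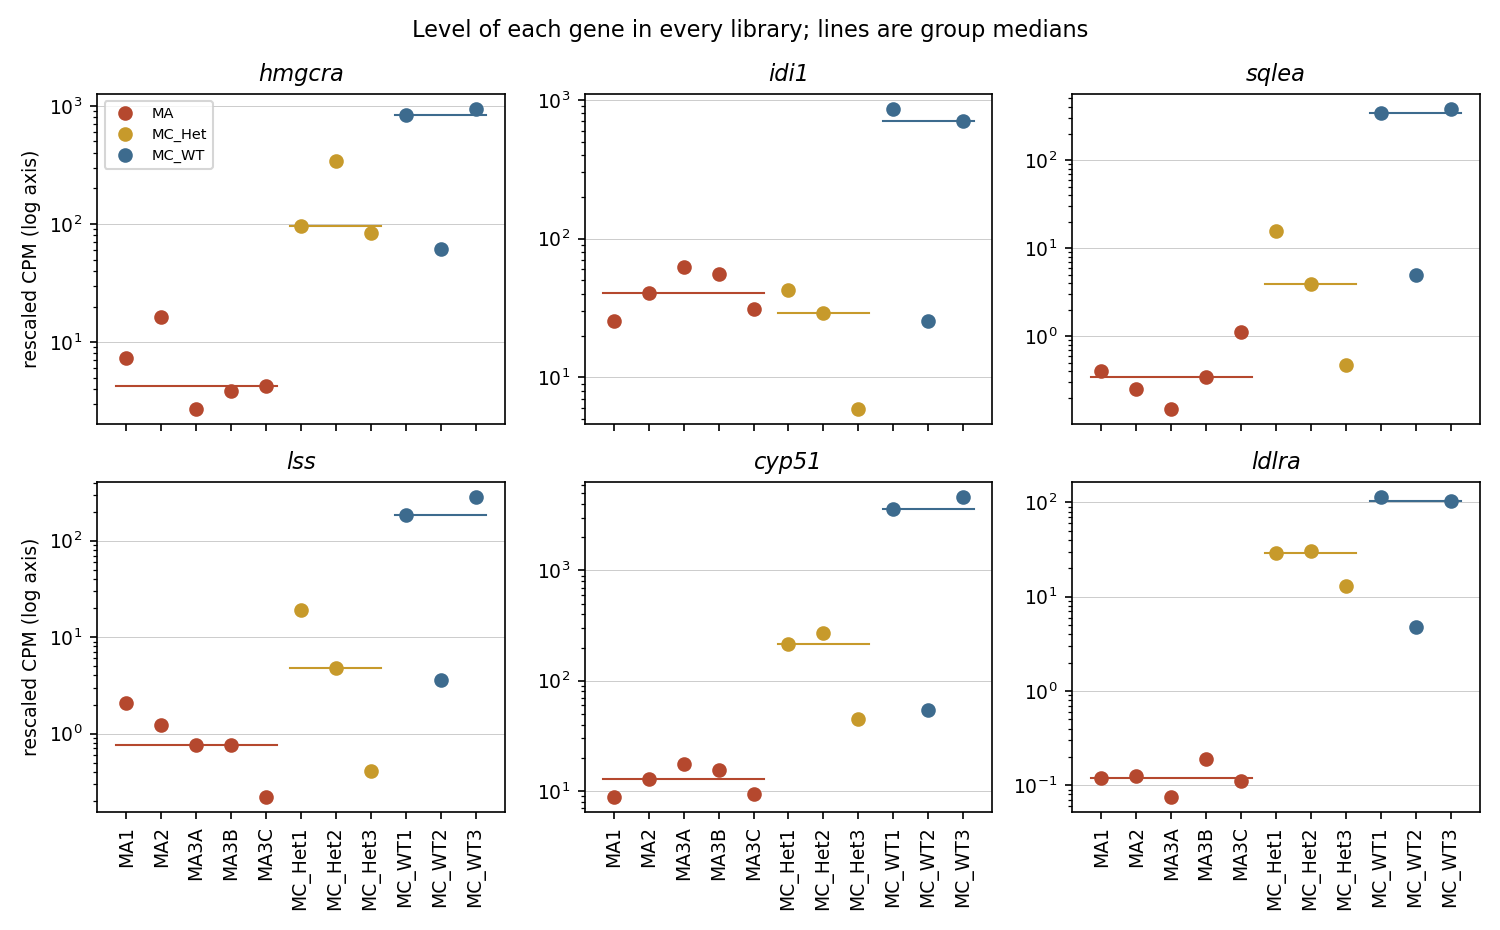
Level of each of the 6 genes (rescaled CPM, log axis) in every library, with 5 MA, 3 MC_Het and 3 MC_WT samples from left to right; lines are group medians. MC_WT1 and MC_WT3 are the highest libraries in every panel, MC_WT2 lies at MC_Het levels or below, and MA is the lowest group for hmgcra, cyp51 and ldlra but overlaps MC_Het for idi1.

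Levels can be set between genes only per length, as rescaled RPKM (CPM per kilobase of gene). In MA, idi1 had the highest mean level, 13.2 ± 4.83 rescaled RPKM, followed by cyp51 at 5.29 ± 1.56 and hmgcra at 1.78 ± 1.43 (SD, n = 5). Every MA sample was higher for idi1 than any was for cyp51, and cyp51 and hmgcra overlapped. lss at 0.395 ± 0.272, sqlea at 0.216 ± 0.182 and ldlra at 0.0248 ± 0.0083 rescaled RPKM came last in MA. lss and sqlea did not differ there beyond their spread, whereas ldlra was below both in every tumor sample. In MC_Het the order was cyp51 at 72.9 ± 48.6, hmgcra at 44.5 ± 37.0, idi1 at 7.9 ± 5.66, ldlra at 4.82 ± 1.94, sqlea at 3.21 ± 3.8 and lss at 3.16 ± 3.81 rescaled RPKM (SD, n = 3), and the samples of hmgcra and idi1 did not overlap, while those of the other neighbours did. In MC_WT, cyp51 led with a median of 1491 rescaled RPKM, against 216 for hmgcra, 214 for idi1, 163 for sqlea, 72.5 for lss and 20.6 for ldlra. The demethylase gene cyp51 was thus first in both melanocyte groups and the isomerase gene idi1 first in MA.

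The spread among the MC_WT samples was wide for these genes beside other genes. MC_WT1 exceeded MC_WT2 by 13.7-fold for hmgcra, 24.2-fold for ldlra, 34.2-fold for idi1, 51.3-fold for lss, 67.3-fold for cyp51 and 68.7-fold for sqlea. MC_WT3 exceeded MC_WT2 by between 15.6-fold (hmgcra) and 87.2-fold (cyp51), and MC_WT3 and MC_WT1 lay within 1.54-fold of each other for all 6 genes. The range from lowest to highest MC_WT sample was 3.94 for hmgcra, 4.33 for ldlra, 5.04 for idi1, 5.96 for lss, 6.02 for sqlea and 6.42 for cyp51 on the log2(rescaled CPM + 1) scale. Over all 14706 genes tested, the median range was 0.82 and the 95th percentile 2.30, and the range of cyp51 ranked at place 13. The MC_WT samples came from separate fish, and the labels give no difference between them and give all 11 libraries the same run number.

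On the log2(rescaled CPM + 1) scale, both MC_WT1 and MC_WT3 were at least 4-fold above MC_WT2 for 6 of 6 genes, against 174 of 14706 genes tested (1.18%). The reverse, MC_WT2 at least 4-fold above both, held for 0 of the 6 genes and for 108 genes in all (0.73%). MC_WT1 and MC_WT3 were also the closest pair of MC_WT libraries over all genes, with a mean chi-square per gene of 59.8 between their reads, against 158 and 174 for their pairs with MC_WT2. Markers of other skin cell types were set beside this. Keratinocyte markers summed to 118474, 69226 and 73743 rescaled CPM in MC_WT1, MC_WT2 and MC_WT3, leukocyte markers to 7890.0, 5671 and 6621, and fibroblast markers to 1260.0, 639 and 1486. MC_WT2 was the lowest of the 3 in each of those lists, close to MC_WT3 for the keratinocyte markers, and in the melanocyte markers it was the highest (555, 1169 and 1061). MC_WT2 stood further apart in smaller lists: erythrocyte markers summed to 185, 32.1 and 120 rescaled CPM in MC_WT1, MC_WT2 and MC_WT3, iridophore markers to 55.5, 189 and 56.2, and proliferation markers to 105, 283 and 167. The part of all these markers in the difference between the libraries was not tested.

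**Figure D2:**
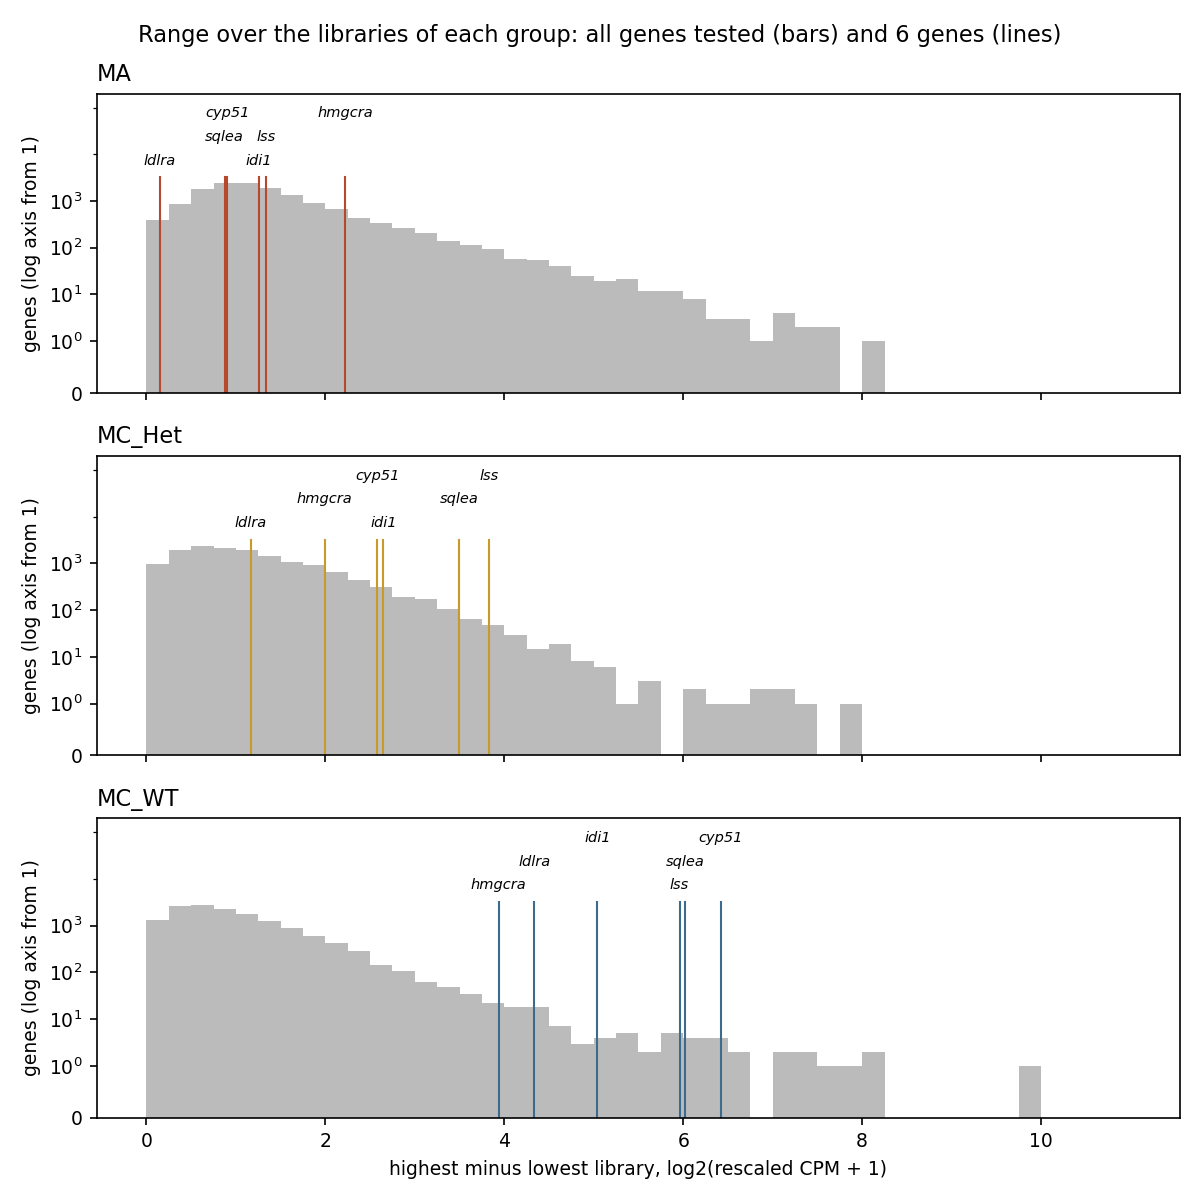
Range from lowest to highest library of each group on the log2(rescaled CPM + 1) scale, for all 14706 genes tested (bars, gene number on a log axis) and for the 6 genes (lines), in MA, MC_Het and MC_WT from top to bottom. In MC_WT all 6 lines lie between 3.94 and 6.42, far to the right of the median of 0.82, whereas in MA 5 of the 6 lie at or below 1.34.

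Within MC_Het the 6 genes shared their lowest sample but not their highest. MC_Het3 was the lowest of the 3 samples for 6 of 6 genes, and it was the lowest for 4621 of the 14706 genes tested (31.4%). From highest to lowest sample, MC_Het differed 46.5-fold for lss, 32.7-fold for sqlea, 7.15-fold for idi1, 6.08-fold for cyp51, 4.02-fold for hmgcra and 2.34-fold for ldlra. By range on the log2 scale in this group, lss ranked at place 124 and sqlea at place 209 of 14706, whereas ldlra ranked at place 6088, near the middle of all genes. In MA the ranges on that scale lay between 0.15 for ldlra and 2.22 for hmgcra, against a median of 1.19 over all genes tested. The MA range was narrower than that in MC_Het for 5 of the 6 genes and wider for hmgcra (2.22 in MA and 1.99 in MC_Het). The added 1 narrows the range of the low genes, and by fold from highest to lowest sample, MA differed 9.41-fold for lss, 7.31-fold for sqlea and 2.52-fold for ldlra.

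Sample by sample, the 6 genes deviated from their group means together. Over 11 samples, Pearson r of the deviations on the log2 scale ran between 0.72 and 0.98 for the 15 pairs of genes, with a median of 0.92. These values are descriptions, and MC_WT1, MC_WT2 and MC_WT3 carry most of the deviation in each gene. hmgcra was the least like the others, at 0.72 with both idi1 and sqlea, and cyp51 and ldlra were the most alike at 0.98. Ranked by mean r with the 6 genes among all other genes tested, the 5 genes most like them were fdps, mvdb, si:ch73-196i15.3, acat2 and ebp, with a mean r of 0.93 to 0.95. fdps, mvdb and acat2 encode mevalonate pathway enzymes and ebp encodes a sterol isomerase, and 6 of the 10 most like genes were in one of the pathway lists.

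The first comparison asked how melanoma cells differ from all melanocytes, as the study pooled them. In MA, 5 of the 6 genes were lower and 0 were higher than in the 6 melanocyte samples at an adjusted p under 0.05, by limma on the log2(rescaled CPM + 1) scale with Benjamini-Hochberg adjustment over 14706 genes. Over all genes tested, 27.7% were lower and 23.8% higher by that rule, and with CPM left as deposited the whole split moved to 6203 higher and 3129 lower, against 3503 and 4077 with rescaling. CPM as deposited put the median change of all genes at 0.58, and 5244 genes were then higher and 2924 lower in MA than in MC_Het and 5562 higher and 2748 lower than in MC_WT, against 3011 and 3709 and against 2851 and 3688 with rescaling. The log2 fold change was -5.08 for hmgcra (SE 0.68, adjusted p = 1.7e-05), -4.80 for ldlra (SE 0.64, adjusted p = 1.5e-05) and -4.78 for cyp51 (SE 1.02, adjusted p = 0.0011). It was -3.92 for sqlea (SE 1.19, adjusted p = 0.012) and -3.27 for lss (SE 1.1, adjusted p = 0.022), and idi1, at -0.80 (SE 0.99, adjusted p = 0.52), did not pass the test by limma. On recovered reads, DESeq2 called all 6 genes lower, idi1 at -2.70 (adjusted p = 0.025), and edgeR called 5, with idi1 at -2.68 (adjusted p = 0.054). Over all genes tested, DESeq2 called 29.1% lower and edgeR 26.3%. The added 1 understates the change of low genes, and over 26 alternatives the value for ldlra ran between -8.64 and -2.86 and that for sqlea between -8.12 and -1.87. The median change of the 6 genes was -4.35, against 0.04 over all genes tested. sqlea and ldlra passed the filter on low values only through the melanocytes, so the counts are descriptions of these genes.

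At the thresholds of the study, a log2 fold change over 1 and an adjusted p under 1e-06, 0 of the 6 genes were lower and 0 higher by limma, where 4.64% of all genes were lower and 0.544% higher. DESeq2 on recovered reads put 4 of them past those thresholds as lower. The share of all genes past them by DESeq2 was not counted, so this count only describes the 6 genes. The count at an unadjusted p under 0.05 by limma was 5 lower, beside 4417 of the 14706 genes tested. Without MC_WT1 and MC_WT3, an alternative chosen after the levels had been seen, 4 of the 6 genes were lower (26.2% of all genes were): hmgcra at -4.10, ldlra at -3.89, cyp51 at -3.04 and sqlea at -1.87. In that setting lss was at -1.45 (adjusted p = 0.065) and idi1 turned to 0.92 (adjusted p = 0.13). The lss call was also lost with MA3A, MA3B and MA3C averaged (adjusted p = 0.091) and with no filter on low values (adjusted p = 0.062).

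Set against MC_Het alone, which leaves the divided group out of the contrast, 3 of the 6 genes were lower in MA and 0 higher, beside 25.2% lower and 20.5% higher over all genes tested. They were ldlra at -4.40 (SE 0.77, adjusted p = 0.00033), hmgcra at -4.39 (SE 0.79, adjusted p = 0.00041) and cyp51 at -3.37 (SE 1.08, adjusted p = 0.02), the same 3 genes in which no MA sample reached any MC_Het sample. The share of all genes with MA wholly below MC_Het was not counted, so this order only describes the 3 genes. sqlea was at -1.81 (SE 1.1, adjusted p = 0.2), lss at -1.51 (SE 1.1, adjusted p = 0.28) and idi1 at 1.00 (SE 0.91, adjusted p = 0.39). As in the first comparison, sqlea and ldlra passed the filter on low values only through the melanocytes, so counts that include them are descriptions. All 3 MC_WT samples still enter the estimate of the spread in this fit. Without MC_WT2, or without MC_WT1 and MC_WT3, sqlea had the same change with an adjusted p of 0.027 or 0.033. On recovered reads 5 genes were lower, both by edgeR (23.7% of all genes were) and by DESeq2 (25.7%). The cyp51 call did not hold when MC_Het1 was left out (adjusted p = 0.077), when MC_Het2 was (adjusted p = 0.09), with MA3A, MA3B and MA3C averaged (adjusted p = 0.054) or with no filter (adjusted p = 0.062).

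Against MC_WT, with the same MA samples, 6 of the 6 genes were lower in MA and 0 were higher, beside 25.1% lower and 19.4% higher over all genes tested. cyp51 was at -6.18 (SE 1.08, adjusted p = 0.00036), sqlea at -6.02 (SE 1.1, adjusted p = 0.00052) and hmgcra at -5.77 (SE 0.79, adjusted p = 4.1e-05). ldlra was at -5.20 (SE 0.77, adjusted p = 8.1e-05), lss at -5.03 (SE 1.1, adjusted p = 0.002) and idi1 at -2.59 (SE 0.91, adjusted p = 0.031). Here too sqlea and ldlra passed the filter on low values only through the melanocytes, so the count of 6 is a description. For 5 of the 6 genes every MA sample was below every MC_WT sample, and for idi1 MC_WT2 lay below all 5. The share of all genes with MA wholly below MC_WT was not counted, so this order only describes the 6 genes. An alternative chosen after the levels had been seen left MC_WT2 as the only sample of its group. The changes were then -3.21 for hmgcra, -2.36 for ldlra, -2.07 for sqlea, -2.03 for cyp51, -1.27 for lss and 0.66 for idi1. With 1 sample in that group, only sizes of change are given. Leaving out MC_WT1 alone or MC_WT3 alone ended only the idi1 call, with changes of -1.70 (adjusted p = 0.19) and -1.86 (adjusted p = 0.17). That call was lost as well without MA1 (adjusted p = 0.056), without MA3C (adjusted p = 0.054), with MA3A, MA3B and MA3C averaged (adjusted p = 0.067), with CPM as deposited (adjusted p = 0.08) and with no filter (adjusted p = 0.084).

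Between the melanocyte groups, BRAF, p53 and mitfa alleles differ together, since MC_Het fish were also mitfa+/-, and their parts cannot be told apart. Here 0 of the 6 genes passed the test in either direction by limma, beside 0.161% lower and 0.353% higher of 13044 genes tested. At an unadjusted p under 0.05 by limma, 3 of the genes were lower in MC_Het (idi1, sqlea and lss) and 0 higher. Over all 13044 genes tested, 777 were lower and 868 higher by that rule. The log2 fold changes were -4.21 for sqlea (SE 1.44), -3.59 for idi1 (SE 1.18), -3.52 for lss (SE 1.43), -2.81 for cyp51 (SE 1.43), -1.38 for hmgcra (SE 0.93) and -0.80 for ldlra (SE 0.97), with adjusted p between 0.24 and 0.78. For none of the 6 genes were the groups apart, since MC_WT2 was never above all 3 MC_Het samples. DESeq2 on recovered reads called 2 genes lower, idi1 and sqlea (1.7% of all genes were), and edgeR called 0 (0.11% of all genes were).

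This comparison turned on a single library. MC_WT2 is singled out here because these same genes were low in it, so the count and adjusted p values without it are descriptions. Without MC_WT2, 6 of the 6 genes were lower in MC_Het, beside 1.08% of all genes tested: sqlea at -6.19 (adjusted p = 0.0032), lss at -5.40 (adjusted p = 0.012), idi1 at -5.22 (adjusted p = 0.0025), cyp51 at -4.89 (adjusted p = 0.003), hmgcra at -2.66 (adjusted p = 0.027) and ldlra at -2.22 (adjusted p = 0.026). With MC_WT2 as the only MC_WT sample, the sign turned for 4 genes, to 2.04 for ldlra, 1.34 for cyp51, 1.19 for hmgcra and 0.24 for lss. With 1 sample in that group, these are given as sizes of change only. The labels give no reason to keep some MC_WT libraries over others.

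**Figure D3:**
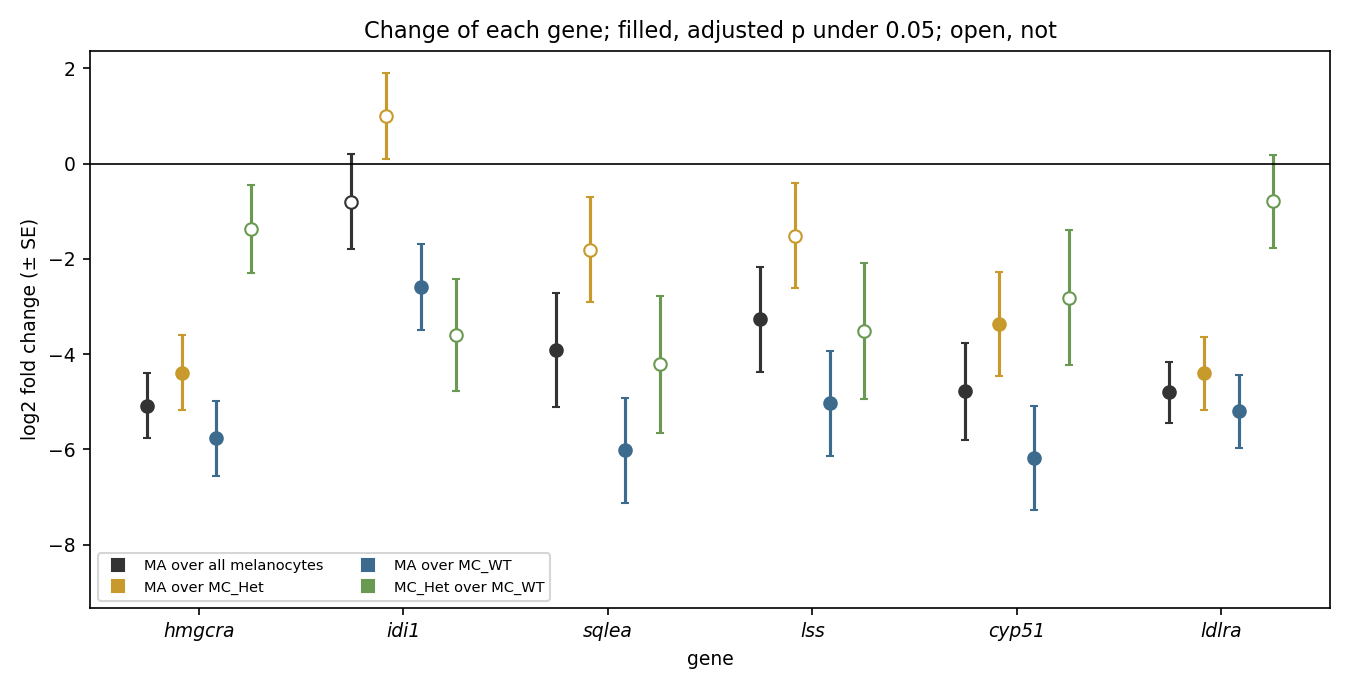
Log2 fold change of each gene on the log2(rescaled CPM + 1) scale with its SE, for MA over all melanocytes, MA over MC_Het, MA over MC_WT and MC_Het over MC_WT; filled symbols have an adjusted p under 0.05 by limma. Every gene but idi1 is below 0 in all 4 comparisons, and no MC_Het over MC_WT symbol is filled.

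The rest of the pathway was read from lists of genes by role. Of 5 other mevalonate enzymes measured, 2 were lower and 0 higher in MA than in all melanocytes by limma, beside 27.7% of all genes lower. Both edgeR and DESeq2 called 5 of the 5 lower, beside 26.3% and 29.1% of all genes. Among them, mvdb had 1 to 19 reads a library in MA and passed the filter on low values only through the melanocytes. Counts that include mvdb are therefore descriptions. Against MC_Het 0 were lower and 0 higher by limma, beside 25.2% of all genes lower. The count lower was 0 by edgeR (23.7% of all genes were), 1 by DESeq2 (25.7%) and 2 by limma without MC_WT2 (25.7%). Against MC_WT 5 were lower and 0 higher, beside 25.1% of all genes lower. fdps, which makes farnesyl diphosphate, had 22.3 to 31.8 rescaled CPM in MA, 138, 96.5 and 31.8 in MC_Het and 2935, 53.8 and 3432 in MC_WT, and fell by 3.21 against all melanocytes (SE 1.02, adjusted p = 0.016). mvk, mevalonate kinase, fell by 2.56 (SE 0.79, adjusted p = 0.013). With MA3A, MA3B and MA3C averaged, both calls were lost, with an adjusted p of 0.064 for fdps and 0.057 for mvk, and the fdps call was lost with no filter (adjusted p = 0.051). acat2, which joins acetyl-CoA units at the head of the route, resembled idi1 instead: it was at 22.1 to 51.0 rescaled CPM in MA, 41.2, 34.9 and 3.29 in MC_Het and 938, 21.7 and 735 in MC_WT, and did not pass limma's test against all melanocytes (-1.11, adjusted p = 0.4). For acat2 the value was -3.19 by edgeR (adjusted p = 0.034) and -3.22 by DESeq2 (adjusted p = 0.0092), and it turned to 0.69 without MC_WT1 and MC_WT3 (adjusted p = 0.33).

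Of 6 other sterol enzymes, 5 were lower and 1 higher in MA than in all melanocytes, beside 27.7% lower and 23.8% higher over all genes. Both edgeR and DESeq2 also called 5 lower. By limma, averaging MA3A, MA3B and MA3C ended the calls of ebp (adjusted p = 0.094) and tm7sf2 (adjusted p = 0.063). With no filter both were lost too (adjusted p = 0.08 and 0.057). The ebp call was lost in further settings, such as without MC_WT1 (adjusted p = 0.061) or MC_WT3 (adjusted p = 0.06). Against MC_Het 2 were lower and 1 higher by limma, while 3 were lower by edgeR, 5 by DESeq2 and 5 by limma without MC_WT2. Of all genes, those settings called 23.7%, 25.7% and 25.7% lower in the same order. Against MC_WT 5 were lower and 1 higher by limma. Over all genes by limma, 25.2% were lower and 20.5% higher against MC_Het, and 25.1% and 19.4% against MC_WT. msmo1, a methylsterol oxidase, had 5.21 to 7.11 rescaled CPM in MA, 315, 69.0 and 20.7 in MC_Het and 6929, 59.9 and 7870 in MC_WT, and fell by 5.64 against all melanocytes (SE 1.27, adjusted p = 0.0017). hsd17b7, a sterol ketoreductase, fell by 5.68 (SE 0.57, adjusted p = 7.8e-07), and it was the member of this list that stayed near 0 in every tumor sample, at 0.161 to 0.422 rescaled CPM against 20.3 or more in the melanocytes. With 4 to 11 reads a library in MA, it passed the filter on low values only through the melanocytes, so its value is a description. sc5d, a sterol desaturase, fell by 4.05 (SE 1.07, adjusted p = 0.0054). lbr, a sterol reductase that is also the lamin B receptor of the nuclear envelope, went the other way: it was at 69.6 to 162 rescaled CPM in MA, against 35.3 to 59.4 in MC_Het and 20.6 to 48.5 in MC_WT, and rose by 1.49 (SE 0.29, adjusted p = 0.00051).

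The pattern of the MC_WT libraries ran through these enzymes too. MC_WT1 and MC_WT3 were both at least 4-fold above MC_WT2 for 5 of the 5 other mevalonate enzymes and 5 of the 6 other sterol enzymes, lbr being the exception, beside the 1.18% over all genes. It was seen for 0 of the 6 isoprenoid branch genes, which use the same intermediates for coenzyme Q, dolichol and protein prenylation. In that branch, 1 gene was higher and 0 lower in MA than in all melanocytes, pdss2, an enzyme of coenzyme Q synthesis, by 1.57 (SE 0.50, adjusted p = 0.016 by limma and 0.053 by edgeR), and ggps1 had a change of -0.01. Of all genes tested, limma called 23.8% higher and 27.7% lower. By that 4-fold rule the sterol enzymes were divided over the MC_WT samples and the genes of the side branch were not.

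**Figure D4:**
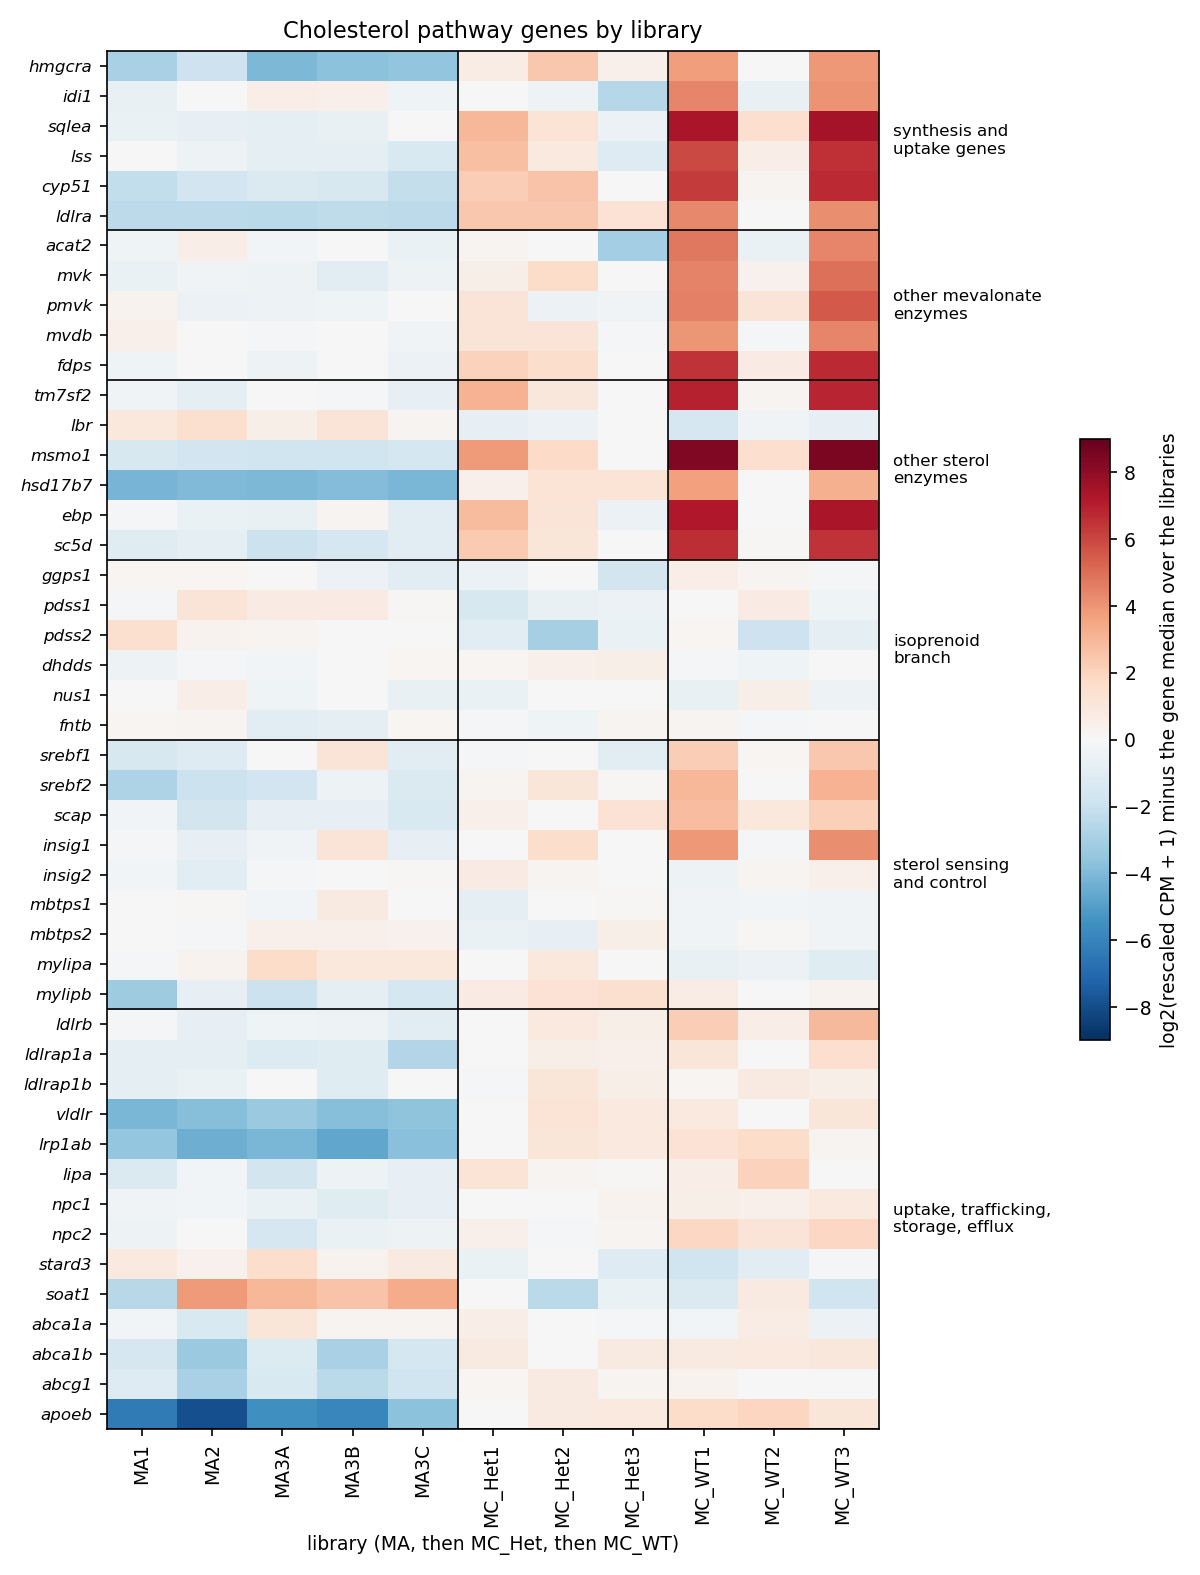
log2(rescaled CPM + 1) of each cholesterol pathway gene minus its median over the 11 libraries (color), with libraries across (MA, MC_Het, MC_WT) and genes down, grouped by role. MC_WT1 and MC_WT3 are red for the synthesis genes other than lbr and for srebf2 and insig1. They are pale for the isoprenoid branch, whereas most uptake and efflux genes split MA from the melanocytes. The range of the uptake and efflux genes over the MC_WT samples runs from 0.24 (abca1b) to 2.65 (soat1), against a median of 0.82 over all genes tested.

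Of 9 genes of sterol sensing and control, 3 were lower and 1 higher in MA than in all melanocytes, 3 lower and 0 higher against MC_Het, and 5 lower and 1 higher against MC_WT. These counts of 3 of 9 (33.3%) are close to the 27.7% and 25.2% of all genes that were lower. Against MC_WT, 25.1% of all genes were lower and 19.4% higher. srebf2, which encodes the SREBP most tied to cholesterol synthesis, was at 4.42, 8.49, 10.3, 26.2 and 14.3 rescaled CPM in MA, 42.9, 77.5 and 37.7 in MC_Het and 291, 35.7 and 313 in MC_WT, and fell by 2.88 (SE 0.59, adjusted p = 0.00089). All MA samples were below all melanocyte samples for srebf2, and MC_WT2 was again at the level of MC_Het. scap, the SREBP escort, fell by 2.22 (SE 0.48, adjusted p = 0.0013), whereas srebf1, whose product acts more on fatty acid genes in mammals, was at -1.11 (adjusted p = 0.16). insig1, which retains the escort, was at -1.78 (adjusted p = 0.058 by limma, 0.019 by edgeR and 0.00086 by DESeq2), with 402, 23.7 and 494 rescaled CPM in MC_WT1, MC_WT2 and MC_WT3. Of the 9 genes, 3 had MC_WT1 and MC_WT3 at least 4-fold above MC_WT2.

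mylipa and mylipb are the pair of genes for the ubiquitin ligase that marks the LDL receptor for degradation in mammals. mylipb fell by 2.40 in MA against all melanocytes (SE 0.44, adjusted p = 0.00035). mylipa was at 0.96 (SE 0.36, adjusted p = 0.037), a call lost by edgeR (adjusted p = 0.055), without any single one of MA3A, MA3B, MA3C, MC_WT1, MC_WT2 and MC_WT3 (adjusted p = 0.068 to 0.11) and without both MC_WT1 and MC_WT3 (adjusted p = 0.18), and against MC_Het it was at 0.43 (adjusted p = 0.37). The second LDL receptor gene, ldlrb, was low in every group, at 0.0741 to 0.884 rescaled CPM in MA, 1.06 to 2.84 in MC_Het and 2.11 to 14.9 in MC_WT, with a change of -1.73 (SE 0.48, adjusted p = 0.0073). Its MA values came from 2 to 22 reads, and like ldlra it passed the filter only through the melanocytes, so this is a description.

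In the list for uptake, trafficking, storage and efflux, 11 of 14 genes tested were lower and 2 higher in MA than in all melanocytes (27.7% and 23.8% of all genes were). Against MC_Het 8 were lower and 2 higher (25.2% and 20.5% of all genes were), and against MC_WT 11 lower and 1 higher (25.1% and 19.4%). Besides ldlrb, ldlrap1b, with 8 to 48 reads a library in MA, passed the filter on low values only through the melanocytes. Counts that include these genes are therefore descriptions. apoeb, an apolipoprotein E gene, was at 10.7 to 212 rescaled CPM in MA, against 2781 to 5148 in MC_Het and 5787 to 10408 in MC_WT, and fell by 6.93 (SE 0.55, adjusted p = 5.3e-08). The lipoprotein receptor genes lrp1ab and vldlr both fell, with changes of -4.94 (SE 0.33, adjusted p = 9e-09) and -4.42 (SE 0.32, adjusted p = 2.2e-08). soat1, which stores cholesterol as esters, rose by 2.94 (SE 0.92, adjusted p = 0.014), at 251, 134, 103 and 179.6 rescaled CPM in MA2, MA3A, MA3B and MA3C but 2.17 in MA1, and 2.19 to 30.3 in the melanocytes. That call was lost with MA3A, MA3B and MA3C averaged (adjusted p = 0.11) and without MC_WT1 and MC_WT3 (adjusted p = 0.059). stard3, a sterol transfer protein of late endosomes, rose by 1.58 (SE 0.33, adjusted p = 0.0011). On the log2(rescaled CPM + 1) scale, 0 of the 14 were at least 4-fold above MC_WT2 in both MC_WT1 and MC_WT3. The added 1 narrows low genes such as ldlrb, at 8.62, 2.11 and 14.9 rescaled CPM in MC_WT1, MC_WT2 and MC_WT3. ldlrap1a had the same order, at 41.5, 18.9 and 56.6. Between MC_Het and MC_WT, 0 genes of these 5 lists passed the test in either direction by limma or edgeR. At an unadjusted p under 0.05 by limma, 4 of the 5 mevalonate enzymes, 2 of the 6 sterol enzymes, 2 of the 9 sensing genes and 2 of the 14 uptake and efflux genes were lower in MC_Het, and 2 other sensing genes were higher. DESeq2 called 3, 2, 2 and 1 of them lower in the same order, beside 1.7% of all genes. At the unadjusted p by limma, 777 of all 13044 genes were lower and 868 higher.

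Without MC_WT1 and MC_WT3, the counts against all melanocytes were 2 lower of 5 mevalonate enzymes, 4 of 6 sterol enzymes, 3 of 9 sensing genes and 11 of 14 uptake and efflux genes, beside 26.2% of all genes. The count of lower uptake and efflux genes was thus the same with and without those libraries. Without MC_WT2, MC_Het was lower than MC_WT for 5 of 5 mevalonate enzymes, 5 of 6 sterol enzymes, 3 of 9 sensing genes and 1 of 14 uptake and efflux genes, and for 0 of 6 isoprenoid genes. Over all genes tested, 1.08% were lower in that setting. MC_WT2 had been singled out by its low levels of the synthesis genes, so the counts without it are descriptions.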

How the data were processed

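RNA was sequenced from sorted zebrafish cells in single-end reads, and per the study's methods the authors aligned them to GRCz11 with STAR and counted with RSEM. The authors deposited CPM and RPKM tables. The counter behind these tables is not given in the sources used here. Of 24874 rows, 236 identifiers stood on several rows with equal values, and 24441 genes were used once each. Reads were recovered from the CPM steps (100% of low values whole within 0.01 reads). CPM were divided by median-of-ratios factors taken over all 11 samples (0.69 to 1.36), and log2(rescaled CPM + 1) was analysed with limma 3.58.1 (trend, 2-sided, Benjamini-Hochberg) for genes that reached 1 CPM in 3 or more of the fitted samples. MA was compared with the pooled melanocytes in a fit of its own, with MC_Het and with MC_WT in a fit of 3 groups, and MC_Het with MC_WT among melanocytes only. edgeR 4.0.16 and DESeq2 1.42.0 on recovered reads were alternatives, beside scaling, pseudocount, filter, RPKM, replicate block, fish and leaving out each sample. The code was tested on simulated data. The 9 genes and the pathway lists were chosen with earlier results of these data known. Named pathway genes were those called in MA over all melanocytes with the largest change (up to 3 per list and direction), the SREBP genes, insig1, scap, fdps, msmo1, duplicates of the 6 genes, and the 5 most like genes. Some pathway genes are not reported here and were left out of the lists. No sequences or promoter motifs are shown, since no sequence table or genome of this build was used here.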

Additional observations from a re-analysis of the deposited data

Results flagged for a closer look

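1 value stood apart in a group of 5. sqlea was at 1.11 rescaled CPM in MA3C, against 0.152 to 0.402 in the other 4 MA samples, by Dixon's test at the 95% level. Each of the 6 genes was tested in MA, and chance flags about 1 in 20 such groups. The value comes from 30 reads.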

How the results depend on the processing

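Of the changes of single genes under the alternatives, direction and side of the threshold were kept in 151 of 156 for MA over all melanocytes, 140 of 150 for MA over MC_Het, 139 of 150 for MA over MC_WT and 102 of 114 for MC_Het over MC_WT. With DESeq2 on recovered reads, 4 genes were lower at the study's thresholds in MA than in all melanocytes, where the share of all genes was not counted. DESeq2 called 2 lower in MC_Het than in MC_WT (1.7% of all genes were). Both edgeR and DESeq2 called 5 genes lower in MA than in MC_Het (23.7% and 25.7% of all genes were). Without MC_WT1 and MC_WT3, chosen after the data were seen, the sign turned for idi1 in MA over all melanocytes (0.92) and over MC_WT (0.66). In MC_Het over MC_WT it turned for hmgcra (1.19), lss (0.24), cyp51 (1.34) and ldlra (2.04). Leaving out each sample in turn, the count lower in MC_Het than in MC_WT ran between 0 and 6, and the 6 came without MC_WT2. The causes were not tested. MC_Het and MC_WT share replicate numbers. Deviations of same-numbered samples correlated at -0.02, -0.12 and -0.06, and those of samples with other numbers at -0.05 to 0.12. Since the deviations of a group of 3 sum to 0, these values cannot decide whether the numbers pair the samples. With the replicate number as a block, the counts of genes called lower were 5, 3, 6 and 0 in the same order of comparisons, and no call of the 6 genes changed. By that setting, 3919, 3640 and 3587 of all 14706 genes tested were lower in MA, and 5 of 13044 in MC_Het. Over all genes, MC_Het over MC_WT had 46 higher and 21 lower by limma, 293 and 222 by DESeq2, 26 and 15 by edgeR, 3 and 5 with the block, 127 and 84 in a fit of 3 groups, 2 and 5 with no filter, and 2 to 110 higher and 4 to 135 lower without 1 sample. ldlra (2 to 5 reads in MA), sqlea and lss are limited by depth in MA.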
